A study of Mus musculus with 2 samples.

Results

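Erythroid cells, the haemoglobin-filled precursors of red blood cells, were examined in single-cell RNA sequencing of the mouse lambdoid junction at E11.5. They were chosen by their globin content, as cells with at most 10% of their unique molecular identifiers (UMIs, each standing for 1 captured transcript) in mitochondrially encoded genes and with 10% or more in 7 globin genes together, which were Hba-x, Hba-a1, Hba-a2, Hbb-y, Hbb-bh1, Hbb-bs and Hbb-bt. Of 14860 cell barcodes, 403 met this definition. There were 2 libraries, 1 per genotype, both of strain C57BL/6J. The first was wild-type, and the second carried Crect, a transgene that drives Cre recombinase in ectoderm, and a lacZ reporter in the ROSA26 locus (genotype Crect; ROSA26-lacZ, called Crect lacZ here). In each, the dissected tissue where the nasal and maxillary prominences meet was pooled from 4 to 5 embryos, so that no difference between genotypes has a replicate check and values are averages over a pool.

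Red cells of this age are mostly primitive erythroblasts, which arise in the yolk sac, enter the circulation while they still have a nucleus and keep dividing there. They make embryonic haemoglobin, in which the alpha-like chain Hba-x (zeta globin) and the beta-like chains Hbb-y (epsilon-y) and Hbb-bh1 precede or accompany the adult chains of Hba-a1, Hba-a2, Hbb-bs and Hbb-bt. As they mature, the transcription factors Gata1 and Klf1 act on the globin genes and on the genes for haem synthesis and the membrane skeleton, while erythropoietin signals through its receptor Epor to keep the cells alive.

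The wild-type library held 252 erythroid cells of 7909 cells within the mitochondrial limit, or 3.19% (95% Clopper-Pearson interval 2.81 to 3.597%). The Crect lacZ library held 151 of 6687, or 2.26% (1.92 to 2.64%). These intervals cover counting error only, and the amount of blood in each dissected pool was not measured. A further 57 and 207 barcodes exceeded the mitochondrial limit, and none of them reached the globin limit. The limit fell in a nearly empty range. In the wild-type library the erythroid cells nearest to it had globin shares of 19.0, 32.1 and 33.8%, and the nearest other cells had 3.95, 1.42 and 1.12%. In the Crect lacZ library the nearest inside had 10.6, 19.8 and 20.0%, and the nearest outside 9.30, 9.22 and 3.53%. The 3 nearest inside the limit in each library, the 2 nearest outside it in Crect lacZ and the nearest outside it in wild-type were all among the 6% of cells with the highest Scrublet doublet scores.

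The median globin share was 60.6% in wild-type and 56.0% in Crect lacZ erythroid cells, against 0.374% and 0.176% in the other cells of each library. These shares chose the cells and are given as a description. Of all UMIs of the 7 globin genes, erythroid cells held 91.2% and 86.6%. The median UMI number per erythroid cell was 30626.5 in the wild-type library, above the 13921 of the other cells, and 13892 in the Crect lacZ library, below the 17637.5 of the other cells. Fewer genes were detected per erythroid cell in both, with medians of 2903 against 3978 and of 1848 against 4276. With each cell thinned to 500 non-globin UMIs the medians were 337 against 387 genes and 333 against 370. The libraries shared 76 barcodes, of which 5 were erythroid in one of them and 0 in both.

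**Figure D1:**
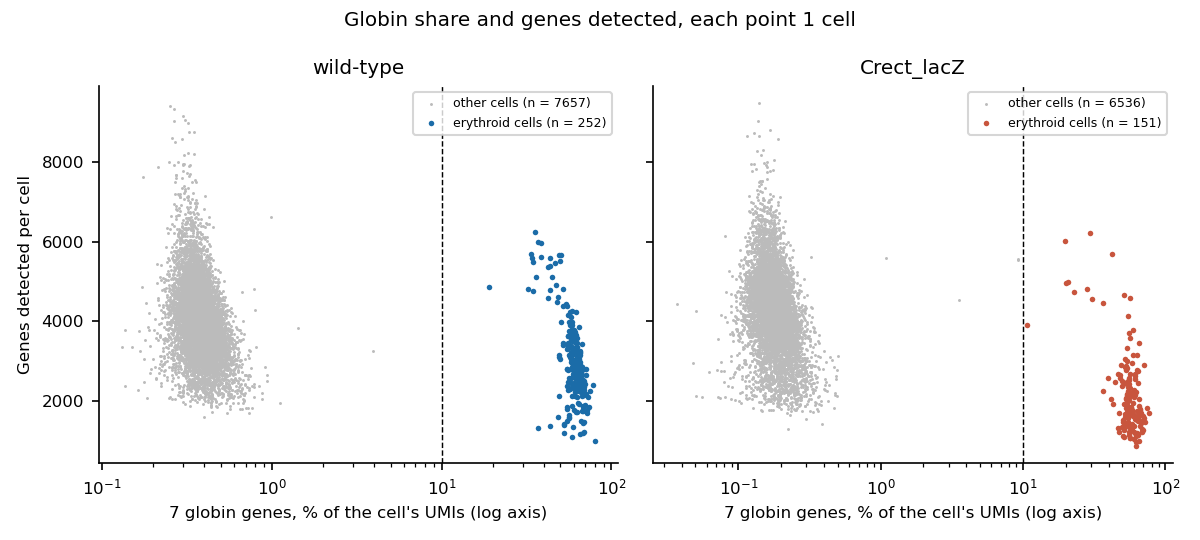
Percentage of each cell's UMIs in the 7 globin genes (log axis) against the number of genes detected, with 1 panel per library and a dashed line at 10%. The erythroid cells form a group centred near 60.6% and 56.0% globin, and the cells closest to the line carry more genes than most of that group.

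Genes outside the definition matched the label. Alas2, the erythroid form of the first enzyme of haem synthesis, was detected in 98.0% of wild-type and 96.7% of Crect lacZ erythroid cells after thinning to 2000 non-globin UMIs, against 1.45% and 0.505% of other cells. Car2, the red cell carbonic anhydrase, was found in 99.6% and 99.3%, against 2.18% and 1.59%. Without thinning, Alas2 was found in 100% of erythroid cells in both libraries and in 10.1% and 4.896% of other cells, whose median UMI numbers are given above. Kit and Myb, which mark early progenitors, were each found in at most 2 thinned erythroid cells per library, shares of 0.794% and 1.32% for Kit and of 0.397% and 0% for Myb. The count of 0 of 151 allows a Myb share of up to 2.41% (Clopper-Pearson). The shares of other cells lay within the counting error of these, at 0.914% and 0.658% for Kit and 0.483% and 0.566% for Myb.

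The sequences upstream of a few of the genes that set these cells apart are shown because Gata1 and Klf1 bind short motifs in such promoters. Each is the last 150 bases before the RefSeq gene start (build GRCm38.p6), 5′ to 3′ on the gene's strand. Capitals mark GATA motifs, searched on either strand as AGATAA and as its variants with T as the first letter, G as the last letter, or both. Beside the globins Hba-x and Hbb-y, the genes are those with the largest fold and a single promoter entry among the named genes for haem synthesis, membrane, transcription factors and Epo signalling.
Hba-x: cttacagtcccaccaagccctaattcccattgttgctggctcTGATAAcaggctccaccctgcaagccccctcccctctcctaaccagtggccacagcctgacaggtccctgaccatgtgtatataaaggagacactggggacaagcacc
Hbb-y: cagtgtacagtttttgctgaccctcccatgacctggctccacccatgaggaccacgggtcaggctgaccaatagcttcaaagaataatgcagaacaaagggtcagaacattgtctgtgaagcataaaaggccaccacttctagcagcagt
Alas2: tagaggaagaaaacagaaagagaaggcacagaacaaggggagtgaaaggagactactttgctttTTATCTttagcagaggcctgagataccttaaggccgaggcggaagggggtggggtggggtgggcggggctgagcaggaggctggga
Icam4: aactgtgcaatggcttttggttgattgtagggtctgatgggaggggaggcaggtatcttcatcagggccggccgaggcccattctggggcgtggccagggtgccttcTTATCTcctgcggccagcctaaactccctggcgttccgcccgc
Klf1: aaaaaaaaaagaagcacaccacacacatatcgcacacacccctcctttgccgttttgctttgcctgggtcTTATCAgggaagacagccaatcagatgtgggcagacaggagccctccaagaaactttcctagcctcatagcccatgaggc
Epor: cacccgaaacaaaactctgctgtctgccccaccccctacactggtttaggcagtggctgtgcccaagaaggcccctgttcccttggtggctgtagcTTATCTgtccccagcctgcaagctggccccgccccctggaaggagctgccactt
They lie on the plus strand at chr11:32276450-32276599 (Hba-x), on the minus strand at chr7:103853208-103853357 (Hbb-y), and at chrX:150547267-150547416 (Alas2, plus), chr9:21029282-21029431 (Icam4, plus), chr8:84901832-84901981 (Klf1, plus) and chr9:21963577-21963726 (Epor, minus). A GATA match began at 108 bases before the start of Hba-x, 86 before Alas2, 43 before Icam4, 80 before Klf1 and 54 before Epor, and none was found in these letters for Hbb-y, which had 1 match further upstream within 250 bases. Genes chosen in the same way for antioxidant genes, red cell enzymes and mitophagy were Gclm, Bpgm and Trim10, whose letters are not shown. None of them had a match in the last 150 bases, and they had 0, 0 and 1 matches within 250 bases.

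Over the 250 bases before the start, 26.5% of all 32851 promoters in the table and 17.1% of the 14240 promoters of genes tested below held a GATA match. The share was 20.7% of 1389 promoters of genes called higher in erythroid cells and 17.8% of 1504 promoters of genes called lower. For called members of the membrane list it was 8 of 14 promoters, for transcription factors 4 of 16, and for haem synthesis 3 of 13. A second motif, CCNCNCCC on either strand, which covers the CACCC-type sites bound by Klf1 and by other factors, was held by 63.7% of tested, 65.4% of higher and 68.1% of lower promoters. A match is a description of these letters and not evidence of binding, and some genes have more than 1 promoter in the table.

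Within the globin genes, the embryonic chains made up most of the UMIs in both libraries. The 7 genes lie in the beta cluster on chromosome 7 and the alpha cluster on chromosome 11. All 7 were used to choose the cells, so their total is no finding, and their proportions are described without a test. Hbb-y, the main embryonic beta-like chain, took 42.7% of wild-type and 45.0% of Crect lacZ globin UMIs in erythroid cells, and its highest share in a single cell was 59.1% and 55.3%. Hba-a1, an adult-type alpha chain, took 17.8% and 21.5%. Hba-x, the embryonic alpha-like chain, took 15.4% and 10.9%, and Hba-a2, the second adult-type alpha chain, 10.6% and 8.81%. Hbb-bh1, an embryonic beta-like chain, took 8.67% and 8.94%. The adult beta chains Hbb-bt and Hbb-bs took 4.25% and 0.636% in wild-type and 2.72% and 2.08% in Crect lacZ.

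Embryonic chains together held 66.7% and 64.9% of globin UMIs. The alpha-type chains held 43.8% and 41.3%. Over single cells the alpha-type share ranged from 28.2 to 55.9% in wild-type and from 32.8 to 50.6% in Crect lacZ, with the middle 50% of cells between 42.1 and 45.1% and between 37.9 and 42.3%. Adult beta chains never exceeded 13.2% of a wild-type or 11.9% of a Crect lacZ cell's globin UMIs. By the UMIs counted, no cell of the class had mainly adult beta globin. The embryonic share of alpha-type UMIs was higher in wild-type (35.2%) than in Crect lacZ (26.5%), with medians over cells of 35.1% and 25.9%. Hbb-bs as a share of Hbb-bs and Hbb-bt also differed, with a median over cells of 6.69% in wild-type and 37.6% in Crect lacZ, although single cells ranged from 0 to 90.8% and from 6.41 to 92.3%. Both differences are between 1 library each and have no replicate check.

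The 2 pairs of adult genes are near copies of each other, which limits how far their split can be read. The longest annotated coding transcripts of Hba-a1 and Hba-a2 were 99.8% identical over 538 aligned bases and shared a run of 415 identical bases. Those of Hbb-bs and Hbb-bt were 92.8% identical over 621 bases and shared a run of 430. The sources used here do not say how reads matching both copies were assigned, so the Hba-a1 to Hba-a2 and Hbb-bs to Hbb-bt proportions are uncertain. If such reads were left out, the adult totals would be too low. The embryonic, alpha-type and adult beta shares above are therefore uncertain too. Hbb-y and Hbb-bh1 were 73.5% identical, with no shared run above 26 bases.

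**Figure D2:**
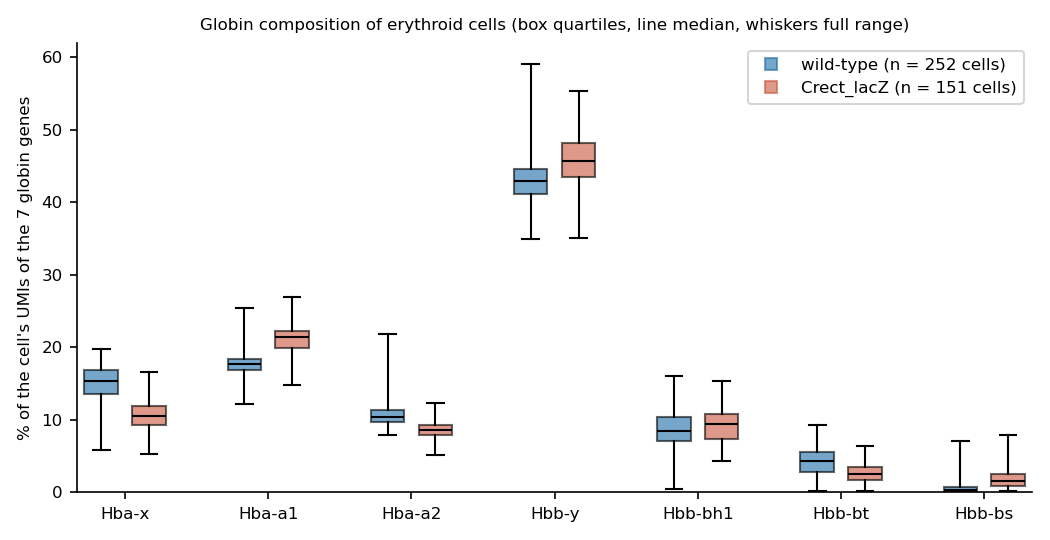
Share of each globin gene in the cell's UMIs of the 7 globin genes, for 252 wild-type and 151 Crect lacZ erythroid cells. Boxes are quartiles, lines medians and whiskers the full range. Hbb-y is highest in both libraries, Hba-x is lower and Hbb-bs higher in Crect lacZ.

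Globin UMIs also occurred in other cells at a low level, and their proportions there were not those of erythroid cells. Hbb-y made up 55.1% and 59.6% of globin UMIs in other cells, above its 42.7% and 45.0% in erythroid cells, and Hba-a1 made up 11.99% and 12.1%, below its 17.8% and 21.5%. The remaining globin genes of the alpha cluster were theta-like. Hbq1b, at 180 and 114 CPM in erythroid cells, was at 0.280 and 0.0810 in other cells, and Hbq1a was at 6.42 and 13.6 against 0.0424 and 0.0486. Both were called higher.

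For genes outside the 7, UMIs were summed over erythroid cells and over other cells of each library. The 4 sums were compared in edgeR with library as a block, and genes were called at 2-fold or beyond where the Benjamini-Hochberg adjusted p was under 0.05. Levels below are CPM, the UMIs of a gene scaled to 1000000 non-globin UMIs of its sum, and pairs of values give wild-type first. Of 15303 genes tested, 1456 (9.51%) were called higher in erythroid cells and 1572 (10.3%) lower, 19.8% in all. The fitted folds use TMM scaling, which raises the erythroid to other ratio of levels by 1.52 in wild-type and 1.37 in Crect lacZ. The median log2 fold of all tested genes was -0.21 with it and -0.76 with library totals alone. With library totals the calls were 848 higher and 4097 lower, so that 17.1% of calls were higher in place of 48.1%. Of the tested genes, only the 13 mitochondrially encoded ones entered the choice of cells, through the 10% limit. That limit is taken over all UMIs, globin included. Of non-globin UMIs, their share reached 14.7% and 19.5% in single erythroid cells, against 9.98% and 10.02% in other cells. Genes that vary together with globin also differ by the choice of cells, and the calls describe the class. The fit had 1 residual degree of freedom and infinite prior degrees of freedom, so the p-values say little on the repeat of 1 gene across libraries, and the levels of both are given.

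The haem pathway was higher almost throughout. Of 15 genes tested, 14 were called higher and 1 lower, with a median log2 fold of 4.49. Alas2 stood at 2387 and 2031 in erythroid cells and at 6.96 and 2.74 in other cells. Its fold was 717 (95% interval 489 to 1052), with an edgeR adjusted p of 3.90e-237. Slc25a37, the mitochondrial iron importer mitoferrin 1, stood at 1076 and 1033 against 11.8 and 10.1, a fold of 139. The pathway enzymes that follow were also higher: Cpox, which makes protoporphyrinogen, at 1091 and 731 against 23.2 and 17.0 (fold 64.9), and Fech, which inserts iron into the ring, at 840 and 756 against 20.0 and 22.5 (fold 54.2). Alas1, the form of the first enzyme used outside erythroid cells, was the 1 member called lower, at 5.20 and 8.01 against 19.8 and 14.9, a fold of 2.03 with an adjusted p of 0.00258. DESeq2 did not call Alas1.

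Iron uptake and storage genes followed, with 8 of 13 called higher and 1 lower. Steap3, the endosomal reductase that readies transferrin iron for transport, stood at 60.6 and 56.1 against 0.729 and 0.397, a fold of 149. Tfrc, the transferrin receptor, stood at 159 and 151 against 17.6 and 11.49, a fold of 15.4. The ferritin heavy chain Fth1 stood at 19781 and 17413 against 1004 and 1024, a fold of 26.3. Slc40a1, the iron exporter ferroportin, stood at 34.9 and 40.0 against 3.34 and 5.04, a fold of 13.4. Hmox1, which breaks haem down, was called lower, at 6.73 and 5.61 against 21.1 and 15.9 (fold 2.07), though not by DESeq2.

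Membrane and membrane skeleton genes were higher almost throughout. Of 21 tested, 19 were called higher and 0 lower, with a median log2 fold of 8.33. Icam4, an adhesion molecule of the red cell surface, stood at 306 and 278 against 0.720 and 0.324, a fold of 813 (654 to 1012). Rhd, of the Rh blood group complex, stood at 916 and 900 against 2.06 and 1.23, a fold of 812 (570 to 1157). Cldn13, a claudin, stood at 169 and 188 against 0.576 and 0.300, a fold of 583. Slc4a1, the anion exchanger band 3, stood at 607 and 1430 against 4.30 and 2.74, so that the Crect lacZ level was well above the wild-type one. Sptb, a spectrin of the membrane skeleton, stood at 120.5 and 243 against 1.25 and 1.06, a fold of 212. The 2 members not called were Aqp1, a water channel, with 1 UMI in wild-type and 0 in Crect lacZ erythroid cells, and Mpp1, a palmitoylated membrane scaffold, at 12.8 and 12.01 against 18.3 and 17.2.

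Of 18 erythroid transcription factors, 14 were called higher and 1 lower. Klf1 stood at 395 and 326 against 2.22 and 1.36, a fold of 293 (241 to 357). Gata1 stood at 112 and 84.9 against 1.21 and 0.292, a fold of 201. Nfe2, which acts on the globin locus, had a fold of 152, from 105 and 102 against 1.52 and 0.518, and Tal1, a partner of Gata1, had a fold of 109, from 154 and 147 against 2.44 and 1.56. Nfia was called lower, at 10.4 and 20.8 against 49.97 and 57.8 (fold 2.62, adjusted p = 6.61e-10). Ldb1, which bridges enhancers and promoters, was at 38.5 and 44.8 against 56.0 and 64.6 and was not called.

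Genes known for globin switching and the fetal programme gave more lower than higher calls. Of 12 tested, 1 was called higher and 5 lower, and 11 had a lower value in erythroid cells in both libraries. Zbtb7a, a repressor of embryonic and fetal globin, was called higher, at 79.8 and 72.1 against 34.2 and 27.2 (fold 3.57, adjusted p = 3.37e-29). Bcl11a, another such repressor, was called lower, at 41.6 and 48.0 against 147 and 128 (fold 2.18). The RNA-binding proteins Igf2bp1 and Igf2bp2 were called lower at folds of 2.38 and 2.43, and the chromatin protein Hmga2 at 2.11. Myb was called lower with 2 and 0 UMIs in erythroid cells, and not by DESeq2. Markers of mesenchyme, which moved with this list, are given below.

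Of 15 genes for Epo and Kit signalling, 8 were called higher and 0 lower. Epor stood at 141 and 208 against 3.97 and 3.31, a fold of 66.9 (55.5 to 80.7). Pim1, a survival kinase induced by Stat5, stood at 369 and 410 against 42.7 and 45.7, a fold of 12.7. Bcl2l1, which encodes the survival protein Bcl-xL, stood at 64.5 and 95.3 against 33.9 and 38.5, a fold of 3.10. The signal carriers Jak2, Stat5a and Stat5b were also called, at folds of 2.63, 8.61 and 4.47. Kit, the stem cell factor receptor, was at 0.612 and 4.00 against 4.41 and 3.92 and was not called. With library totals 5 members were higher and 4 lower, Kit among the lower.

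Of 13 antioxidant genes, 9 were called higher and 0 lower. Blvrb, a flavin and biliverdin reductase, stood at 1665 and 1250 against 24.7 and 26.4, a fold of 81.3. Gclm, the modifier subunit for glutathione synthesis, stood at 750 and 545 against 26.6 and 24.2, a fold of 36.3. The peroxidases Gpx1 and Prdx2 had folds of 23.1 and 7.12, and Prdx2 reached 6736 and 5393. The Hba chaperone Ahsp was not analysed here. Red cell enzymes were divided, with 6 of 15 called higher and 9 not called. Car2 stood at 5402 and 2888 against 12.1 and 8.01, a fold of 578, and Pklr, the red cell pyruvate kinase, at 48.6 and 56.9 against 0.339 and 0.154, a fold of 303. Bpgm, which makes the bisphosphoglycerate that tunes oxygen release, had a fold of 18.6, and the nucleotidase Nt5c3 of 9.83. Car1, the carbonic anhydrase of adult red cells, had 0 UMIs in both erythroid sums.

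Genes linked to organelle removal, ubiquitin and nuclear condensation gave 8 of 16 called higher and 1 lower, or 3 and 1 with library totals. Their summed level was 106% and 104% of that of other cells. Trim10, a ring-finger protein linked to terminal erythroid differentiation, stood at 357 and 233 against 0.661 and 0.324, a fold of 875 (701 to 1092). Ube2l6, a conjugating enzyme, stood at 546 and 374 against 9.48 and 8.66, a fold of 72.2, and Riok3, a kinase linked to enucleation, had a fold of 4.897. Mxi1, a Myc antagonist, had a fold of 2.71 that library totals did not call. Bnip3l, the mitophagy receptor that clears mitochondria from red cells, stood at 423 and 380 against 248 and 201, a fold of 2.58 that library totals did not call. H1f0, a linker histone, was called lower, at 86.2 and 107 against 333 and 375 (fold 2.55). The 13 mitochondrially encoded genes gave 0 calls in either direction in edgeR, with a median log2 fold of -0.12. The DESeq2 test also gave 0 calls, and 5 of these genes had an unadjusted edgeR p under 0.05. With library totals the calls were again 0, and the median log2 fold was -0.65. The summed level of these genes was 63.1% and 87.8% of that of other cells.

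Proliferation genes were present at levels like those of other cells or above. Of 54 genes for G2 and M phase, 14 were called higher and 0 lower, with a median log2 fold of 0.61 against -0.21 over all genes. With library totals it was 0.07 against -0.76, with 7 called higher and 2 lower. Mki67, the Ki-67 antigen of cycling cells, stood at 795 and 464 against 200 and 115, a fold of 5.76 (adjusted p = 2.37e-40). Tubb4b, a tubulin, stood at 1362 and 999 against 232 and 244, a fold of 7.08. Lbr, the lamin B receptor, had a fold of 4.19, and Hmmr, a spindle protein, of 3.78. Of 43 S phase genes, 9 were called higher and 1, the chromatin remodeller Hells, lower, with a median log2 fold of 0.49. With library totals 1 was higher and 4 were lower, with a median of -0.05. E2f8, a repressor of the E2F family, had the largest S phase fold at 3.99. Tyms, Mcm2 and Ccne2 had folds of 2.68, 2.52 and 2.51, and none of these 3 was called with library totals. Summed over each list, S phase genes took 43.5 of 10000 non-globin UMIs in wild-type erythroid cells against 43.4 in other cells, and 34.98 against 35.3 in Crect lacZ. G2 and M genes took 145 against 102, and 98.0 against 82.8.

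Among 82 cytosolic ribosomal protein genes, 21 were called higher and 0 lower, with 1 higher and 0 lower under library totals and 38 and 0 without the cells of high doublet score described below. Rpsa, the ribosomal protein SA, stood at 4966 and 6912 against 2142 and 3002, a fold of 3.32, and Rplp0, Rplp1 and Rps2 had folds of 2.87, 2.60 and 2.59 that library totals did not call. Genes induced by tissue dissociation gave 7 of 24 higher and 1 lower, or 4 and 5 with library totals. Btg2, an antiproliferative gene, stood at 133 and 80.1 against 17.5 and 16.6 (fold 9.07), Dusp1, a phosphatase, had a fold of 3.63, and Klf4 was lower at 2.86. Fos and the chaperone Dnajb1 had folds of 2.79 and 2.06 that library totals did not call. Of 16 glycolysis genes, 3 were called higher and 1 lower, with a median log2 fold of -0.27. The counts were 1 and 5 with library totals and 3 and 4 without the highest doublet scores, and the summed level was 49.8% and 51.5% of that of other cells. The hexokinases parted, with Hk1, the red cell form, at 42.5 and 52.0 against 14.1 and 13.9 (fold 4.79) and Hk2 at 3.06 and 9.61 against 33.4 and 39.8 (fold 4.82 lower). Slc2a1, the glucose transporter Glut1, had a fold of 2.55 that library totals did not call.

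Outside all lists, the 8 largest called increases were in Gm867, Hemgn, Hsd3b6, Lmx1a, Pdzk1ip1, Aqp8, Gm14275 and Slc38a5. Hemgn, a nuclear protein of erythroid cells, stood at 1286 and 937 against 2.52 and 1.199, a fold of 899. Hsd3b6, a steroid dehydrogenase, stood at 472 and 455 against 1.18 and 0.607, a fold of 768 (551 to 1070). Lmx1a, a LIM homeobox factor known from the developing brain, stood at 134 and 103 against 0.415 and 0.0891, a fold of 701 (521 to 942). Slc38a5, an amino acid transporter, stood at 158 and 120 against 0.373 and 0.292, and Aqp8, a water channel, at 60.6 and 68.1 against 0.178 and 0.0972. Pdzk1ip1, a small membrane protein, stood at 496 and 471 against 1.29 and 0.745. Gm867 stood at 82.3 and 56.9, against 0.0932 in wild-type other cells, and had 1 UMI in those of Crect lacZ, and Gm14275 was at 52.9 and 38.4 against 0.153 and 0.0567. The 8 largest called decreases were Mef2c, Basp1, Sfrp1, Tln2, Rspo3, Igfbp7, Aldh1a3 and Vangl2, with folds between 3.42 and 4.37. They include the secreted Wnt pathway genes Sfrp1 and Rspo3, the planar polarity gene Vangl2 and Aldh1a3, which makes retinoic acid.

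**Figure D3:**
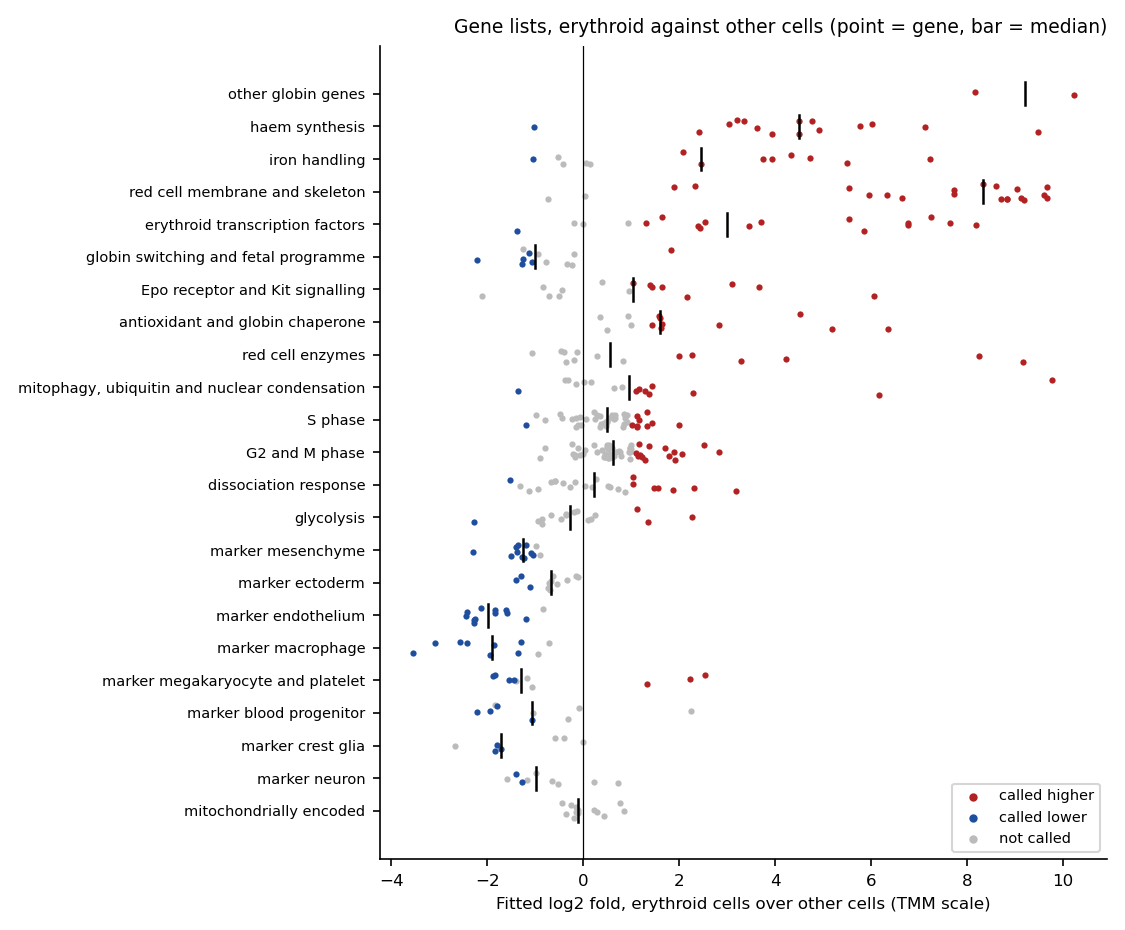
Fitted log2 fold of each list gene in erythroid cells over other cells, 1 row per list, with called genes in colour and the list median as a bar. Genes without a UMI in erythroid cells are left out. The haem and membrane lists lie to the right, with medians of 4.49 and 8.33, and the mesenchyme and endothelial markers lie to the left.

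Markers of the other cell types of the tissue were mostly lower in erythroid cells but not absent. Over all genes tested, 10.3% were called lower. Of 12 blood progenitor markers, 7 had a lower value in both libraries and 2 a higher one. For 9 neuron markers these counts were 5 and 2, and for 8 crest glia markers 6 and 1. Of 12 mesenchyme markers 10 were called lower and 0 higher, of 12 endothelial markers 11 and 0, of 12 macrophage markers 8 and 0, of 12 ectoderm markers 3 and 0, of 8 crest glia markers 3 and 0, of 9 neuron markers 2 and 0, and of 12 blood progenitor markers 4 and 0. Summed over the list, mesenchyme markers took 8.14 of 10000 non-globin UMIs in wild-type erythroid cells and 29.3 in other cells, so that the erythroid level was 27.8% of that of other cells, and 29.9% in Crect lacZ. Msx1, a homeobox gene of the facial mesenchyme, stood at 296 and 205 against 1159 and 871. Without the cells of the highest 6% of doublet scores, which included 25 wild-type and 15 Crect lacZ erythroid cells, the mesenchyme sums came to 17.5% and 18.4% of the other cells' level. Ectoderm sums came to 30.9% and 29.98%, from 32.8% and 56.9%. Lower calls then numbered 12 for mesenchyme, 6 for ectoderm, 10 for endothelium and 5 for macrophages. With library totals and all cells kept they numbered 9 for ectoderm, 5 for crest glia, 5 for neurons and 7 for blood progenitors. The part of free RNA and of doublets in these levels was not tested.

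Defining genes of some types were near 0. The macrophage genes Mrc1 and Adgre1 had 0 UMIs in erythroid cells of both libraries, and so did Ptprc, the pan-leukocyte antigen, Cd48 and Flt3. Cdh5, the endothelial cadherin, had 9 and 8 UMIs, or 2.75 and 6.41 CPM, against 31.1 and 21.0 in other cells. Megakaryocyte and platelet markers were split, with 3 of 11 called higher and 5 lower, or 3 and 1 without the highest doublet scores. Itga2b, which early erythroid cells can share with megakaryocytes, stood at 12.8 and 12.8 against 4.85 and 1.42 and was called higher, as were Vwf and Gp9, the latter not with library totals or DESeq2. Pf4, a platelet chemokine, stood at 17.4 and 8.01 against 114 and 15.6 and was called lower, a call that was lost without the highest doublet scores and without the library block. Treml1 had 0 UMIs in erythroid cells.

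Within the class, cells were ordered by the number of genes detected and divided into 3 equal groups per library, to describe how the richer and the poorer cells differ. No test was made, since cells of 1 library are not replicates. In wild-type the groups held 84 cells each, with median genes of 2149.5, 2903 and 3774 and median UMIs of 19662.5, 30330 and 43440. In Crect lacZ they held 50, 50 and 51 cells, with 1327.5, 1840.5 and 2874 genes and 7983.5, 13545.5 and 26511 UMIs. Thinned to 500 non-globin UMIs the groups differed little, with medians of 336, 332.5 and 346 genes and of 332.5, 331 and 334. The median globin share was lower in the richer cells, at 64.1, 61.6 and 56.9% in wild-type and 59.7, 56.4 and 53.1% in Crect lacZ. The highest group held 22 of the 25 wild-type and 11 of the 15 Crect lacZ cells with high doublet scores.

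Membrane genes were highest in the cells with the fewest genes. Per 10000 non-globin UMIs they took 69.4, 64.8 and 51.1 from the lowest to the highest group in wild-type, a ratio of lowest to highest of 1.36 (Poisson 95% interval 1.31 to 1.41). In Crect lacZ they took 91.6, 76.7 and 48.9, a ratio of 1.87 (1.76 to 1.98). Without the high doublet scores the ratios were 1.12 and 1.44. Slc4a1 was at 788, 680 and 508 CPM in wild-type and at 2814, 1925 and 941 in Crect lacZ, ratios of 1.55 and 2.99. Kel, a blood group protein of the membrane, had ratios of 1.51 and 2.42, and Sptb of 1.29 and 2.64, the former with an interval from 0.981 to 1.69.

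Haem genes took 138, 133 and 108 of 10000 non-globin UMIs in wild-type and 120, 117 and 93.3 in Crect lacZ, ratios of 1.28 and 1.29 that came to 1.05 and 1.03 without the high doublet scores. Epo and Kit signalling genes had ratios of 1.53 and 1.64, and 1.39 and 1.34 without them. Iron genes had ratios of 1.33 and 1.004, which came to 1.11 and 0.805 without them and to 1.32 and 1.66 with cells grouped by genes in 500 thinned UMIs. Gata1 was at 140 in the lowest and 91.9 in the highest group of wild-type, and at 140 and 68.9 in Crect lacZ, whereas Klf1 had ratios of 1.14 (0.971 to 1.33) and 0.686 (0.477 to 0.963). Trim10 had ratios of 1.56 and 1.85 and Bnip3l of 1.56 and 1.53. Their whole list, for organelle removal, ubiquitin and nuclear condensation, had ratios of 1.06 (1.02 to 1.11) and 0.994 (0.906 to 1.09).

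Genes of G2 and M phase ran the other way. They took 114, 141 and 157 of 10000 non-globin UMIs from the lowest to the highest group in wild-type, a ratio of 0.730 (0.710 to 0.750), and 67.8, 97.5 and 105 in Crect lacZ, a ratio of 0.648 (0.609 to 0.689). Without the high doublet scores the ratios were 0.691 and 0.579. Top2a, the topoisomerase of dividing cells, was at 448, 651 and 725 CPM in wild-type, and at 314, 504 and 401 in Crect lacZ, where the interval of its ratio reached 1.05. Hmgb2, a chromatin protein of cycling cells, had ratios of 0.719 and 0.647. S phase genes were highest in the middle group of wild-type, at 37.3, 51.9 and 40.6. In Crect lacZ they were at 31.5, 36.9 and 35.01. There the intervals of the middle (34.8 to 39.2) and highest (33.7 to 36.3) groups overlapped. Rrm2, a subunit of ribonucleotide reductase, was at 275, 582 and 375 in wild-type. Mki67 differed between libraries in direction, with ratios of 0.896 (0.800 to 1.002) and 1.31 (1.03 to 1.67).

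Mesenchyme markers were also higher in the richest group, at 5.54, 4.93 and 10.8 and at 5.35, 5.79 and 9.50 of 10000. The ratios were 0.512 and 0.563. Without the high doublet scores they came to 1.09 (0.945 to 1.26) and 1.202 (0.921 to 1.56), with intervals that held 1. The genes for globin switching had ratios of 0.580 (0.503 to 0.666) in wild-type and 0.900 (0.721 to 1.11) in Crect lacZ. These came to 0.958 (0.816 to 1.12) and 1.35 (1.06 to 1.72) without the high doublet scores. With cells grouped by genes in 500 thinned UMIs, the switching ratios were 0.463 and 0.533. Mitochondrially encoded genes had ratios of 1.05 and 1.48, which turned to 0.870 (0.854 to 0.886) and 0.822 (0.802 to 0.841) in that grouping. Among the globins the groups were close in composition. Hba-x took 13.98, 15.5 and 16.1% of wild-type globin UMIs from the lowest to the highest group and 10.3, 10.3 and 11.54% of those of Crect lacZ, and Hbb-y took 43.6, 42.9 and 42.0% and 44.7, 45.7 and 44.7%.

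**Figure D4:**
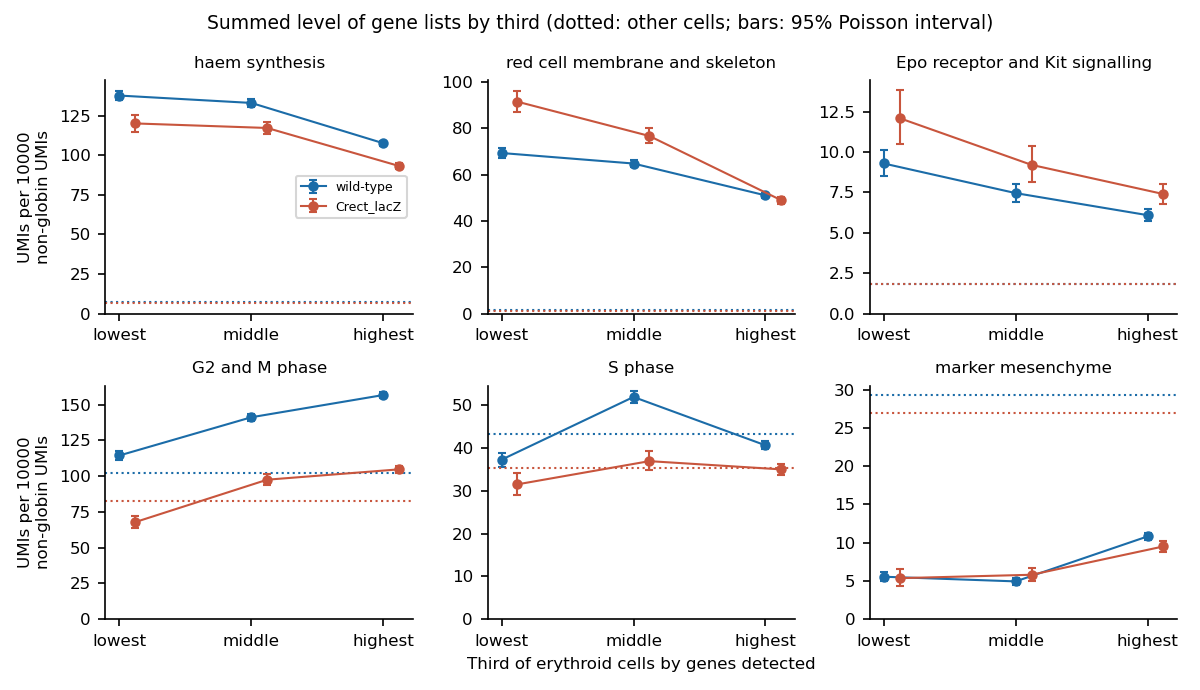
Summed UMIs of 6 gene lists per 10000 non-globin UMIs in 3 groups of erythroid cells by genes detected, with Poisson 95% intervals and a dotted line for other cells of the library. Membrane genes go from 69.4 to 51.1 and from 91.6 to 48.9, G2 and M genes go from 114 to 157 and from 67.8 to 105, and mesenchyme markers are highest in the highest group.

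Between the genotypes, few genes of erythroid cells differed past 2-fold, as far as 1 library each can show. Of 6632 genes with 50 or more UMIs, 41 (0.618%) had a Crect lacZ to wild-type ratio whose 95% interval lay beyond 2-fold, 20 (0.302%) higher and 21 (0.317%) lower in Crect lacZ. The intervals are conditional binomial ones and cover counting error only. Of the 41, 13 and 14 were also past 2-fold in the same direction among other cells. The share of all 6632 genes past 2-fold in other cells is not given here, so the size of this overlap cannot be judged. The median ratio was 0.970 in erythroid and 0.913 in other cells.

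The largest ratios were in Gm10709, Gm10260, Gm8797 and Gm10320, at 42.5, 38.3, 17.3 and 9.79, with 39.7, 48.2, 15.7 and 9.90 in other cells. Gm10709 is annotated as a processed pseudogene, so its reads could come from a parent gene and its count is uncertain, and the other 3 are predicted genes. Ctse, the aspartic protease cathepsin E, was at 5.81 in wild-type and 97.7 in Crect lacZ erythroid cells, a ratio of 16.8 (10.3 to 28.9), from 19 and 122 UMIs, and stood at 0.0508 and 0.227 in other cells. Slc4a1 was at 607 and 1430, a ratio of 2.35, against 0.636 in other cells. It was picked after its values were seen.

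The linker histones Hist1h1b, Hist1h1e and Hist1h1a were lower in Crect lacZ erythroid cells, at 28.8 against 249, 35.2 against 269 and 8.01 against 47.7. They were lower in other cells too, with ratios of 0.141, 0.158 and 0.152. Gm20628, an antisense transcript, had 72 wild-type and 3 Crect lacZ UMIs, and its reads cannot be told apart from its partner's where strand was not used. Cyp26b1, which breaks down retinoic acid, had 49 and 3, a ratio of 0.160 (0.0320 to 0.497), with a ratio of 1.01 in other cells and no value among cells with 50% globin or more, where it fell under 50 UMIs.

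By list, mitochondrially encoded genes had a ratio of 1.655 in erythroid and 1.19 in other cells. Red cell enzymes had 0.642 in erythroid and 0.962 in other cells. Most UMIs of that list in erythroid cells were from Car2, with 17663 of 23251 in wild-type and 3606 of 5702 in Crect lacZ. Car2 was at 5402 in wild-type and 2888 in Crect lacZ, so the list ratio mainly follows this 1 gene. G2 and M genes had 0.676 and 0.812, and membrane genes 1.05 and 0.794. The membrane list includes Slc4a1, whose higher level in Crect lacZ is given above, and its ratio without that gene was not computed. The median number of non-globin UMIs per erythroid cell was 11714.5 in wild-type and 5743 in Crect lacZ, and its part in these ratios was not tested.

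**Figure D5:**
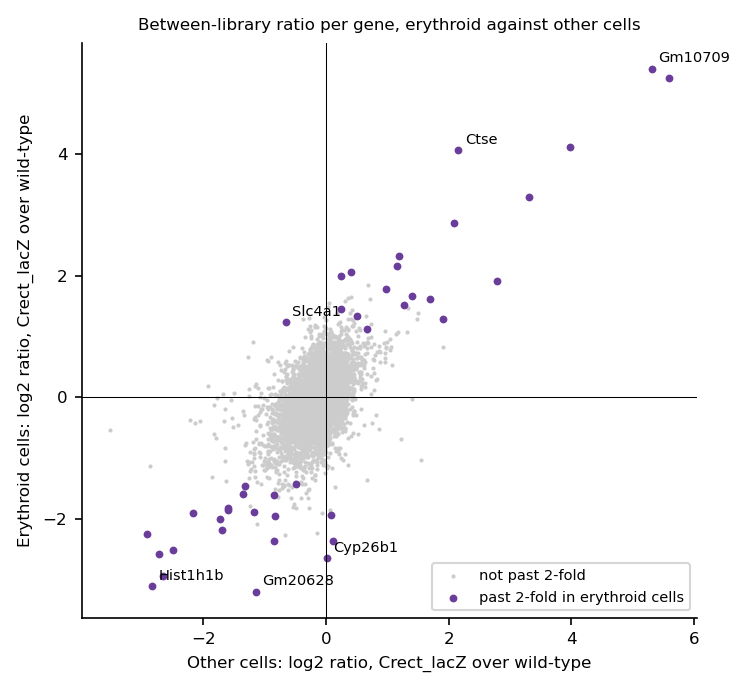
Log2 ratio of Crect lacZ to wild-type levels in erythroid cells against the same ratio in other cells, for genes with 50 or more erythroid UMIs and with UMIs in both libraries' other cells. The 41 genes past 2-fold in erythroid cells are in colour. Gm10709 and Hist1h1b lie along the diagonal, and Slc4a1 lies above 0 in erythroid cells and below 0 in other cells.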

How the data were processed

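Both libraries were made with the 10x Genomics 3' v2 kit from trypsin-dissociated tissue, per the labels' protocols. The authors deposited raw UMI counts per gene and cell barcode, without normalization, 126638790 wild-type and 127765199 Crect lacZ UMIs over 27998 genes and, in the Crect lacZ table, 2 transgene entries. Cell Ranger 2.0 and build mm10 are named per the submitters' processing notes. The sources used here do not say how barcodes were filtered, whether strand was used or how shared reads were counted.

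The members and the 24 gene lists besides the 7 globins were chosen with earlier results of these data known. Counts were summed per library and class, the 7 globins were removed from the table and from library sizes, and the 4 sums were fitted in edgeR 4.0.16 (R 4.3.3) with TMM scaling, filterByExpr, library as a block and the quasi-likelihood test, adjusted over 15303 genes. DESeq2 1.42.0 was an alternative. The fit was also run on counts simulated from the profile of other cells, with equal numbers of genes raised and lowered. Such counts cannot test the scaling between erythroid and other cells. The sums were over 3269907 and 1248818 non-globin erythroid UMIs. Each library's erythroid and other sums are paired by coming from the same pool. Poisson, conditional binomial and Clopper-Pearson intervals (scipy 1.17.1) cover counting error only, and a count of 0 was bounded at 3 UMIs. With 1 library per genotype, p-values and the intervals of fitted folds measure only the spread between these sums.

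Named genes were, per list, up to 4 called genes per direction with the largest fold that had equal signs in the 2 libraries and averaged 20 CPM or more over the 4 sums, then 8 per direction outside the lists and, between libraries, the 5 largest ratios each way. Other genes are given as list members after their values were seen. Scrublet, run through scanpy 1.11.5, gave each barcode a doublet score (expected rate 0.06). The automatic threshold marked 175 wild-type barcodes but only 3 of Crect lacZ (0.0435%), which is not a working threshold, so no cell was removed and the highest 6% of scores were left out as an alternative. Promoters were from RefSeq, build GRCm38.p6. Symbols of 11126 tested genes matched. Gene coordinates were from GENCODE vM21. Some genes that these rules name are not reported here.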

Additional observations from a re-analysis of the deposited data

Results flagged for a closer look

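The median UMI number of erythroid cells was 2.20 times that of other cells in the wild-type library and 0.788 times in the Crect lacZ library, opposite directions in the 2 genotypes. The difference was not tested, with 1 library each.

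The median log2 fold of the megakaryocyte and platelet markers was -1.31 in wild-type and 1.10 in Crect lacZ, again an untested difference. With genes at 0 UMIs set to their bound of 3 UMIs the medians were -0.92 and 2.76. Summed over the list, the ratio of Crect lacZ to wild-type was 0.856 in erythroid cells and 0.178 in other cells.

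The Cre transgene, which entered no comparison, had 4 UMIs in Crect lacZ erythroid cells, above the floor of 3. That is 3.20 CPM (0.873 to 8.20), against 9.08 in other cells. The lacZ entry had 0 UMIs there, against 3.47 CPM in other cells. The upper limit of the same kind of interval was 2.95 CPM, and the bound of 3 UMIs is 2.40 CPM.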

How the results depend on the processing

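The number of erythroid cells kept within 1.5 times its value under globin limits of 5, 20 and 50%, both mitochondrial alternatives and without the highest doublet scores, between 222 and 252 in wild-type and between 126 and 153 in Crect lacZ. Calls changed with scaling: library totals gave 848 higher and 4097 lower, gate globins kept in library sizes 377 and 10977, and DESeq2's Wald test 1452 and 701, of which 1347 and 698 were among the calls of the edgeR fit. Without the library as a replicate block, edgeR gave 1390 higher and 1185 lower, and no paired value changed the direction of a named gene. Without the highest doublet scores the calls were 1671 and 2237, of which 1425 and 1388 were shared. No gene was called in opposite directions by the edgeR fit and an alternative. Of 1092 values of named genes under alternatives, 1059 kept direction and call, 22 lost the call and 11 changed sign. The sign changes came with gate globins kept in library sizes, at log2 values of -0.078 for Bcl2l1, -0.29 for Mxi1, -0.29 for Tyms, -0.38 for Mcm2, -0.40 for Ccne2, -0.29 for Fos, -0.70 for Dnajb1, -0.36 for Slc2a1, -0.19 for Rplp0, -0.33 for Rplp1 and -0.34 for Rps2. The list median of platelet markers was 1.10 without the wild-type library and -1.31 without the Crect lacZ library. The ratio of lowest to highest group by genes detected kept its direction for membrane and for G2 and M genes, but not for several other lists, among them mitochondrially encoded genes, mesenchyme markers, and iron, switching and S phase genes in Crect lacZ. For membrane genes in wild-type it was 1.22 with 2 groups, 1.12 without high doublet scores and 1.23 with groups by thinned genes, and in Crect lacZ 1.54, 1.44 and 1.25. For G2 and M genes it was 0.770, 0.691 and 0.792 in wild-type and 0.695, 0.579 and 0.701 in Crect lacZ, and 0.755 and 0.751 with groups by non-globin UMIs. The causes of these shifts were not tested. Genes past 2-fold between libraries numbered 17 higher and 20 lower at 50% globin or more.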
